A study of Gallus gallus with 58 samples.

Results

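Whole blood of control chicks was compared between day 3 after hatch (D3, 8 chicks) and 3 h after the day-of-hatch injection time (10 chicks). These 18 arrays, of 58 in the series, were chosen by their titles: those labelled as control stimulation at either time. The series tests CpG-ODN 2007, a short DNA that activates the chicken receptor TLR21, given on the day of hatch. The control chicks carry the stimulation label CTL, and the labels used here do not say what they were given. The labels state no strain, sex, genotype, batch or pairing of chicks. Each array stands for a different chick, and the 2 ages share no chick, so that age and any batch that runs with it cannot be told apart. Control chicks at D6 (12) and CpG chicks at 3 h (10) and D3 (8) were used for 2 side comparisons. The question the comparison addresses is which transcripts of blood changed over the first days of life without the oligonucleotide.

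Blood of a bird differs from that of a mammal. Its red cells keep their nucleus and carry RNA, and its clotting cells are nucleated thrombocytes, so that both add transcripts to a whole-blood sample beside lymphocytes, monocytes and heterophils, the granulocytes that take the place of neutrophils. In the course of development, red cells that hold embryonic globins give way to definitive red cells. Around hatch the chick passes from yolk lipid to feed, from allantoic to lung breathing, and meets its first microbes.

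All values are deposited log2 expression values (RMA, 1 array per chick), a difference is D3 minus 3 h on that scale with the standard error (SE) of the limma fit, and a difference of 1 is a 2-fold change. A gene is said to rise or fall only where its p-value, adjusted by Benjamini-Hochberg over 20804 probe sets, was under 0.05. Array medians lay between 6.64 and 6.78. Control chick 74 at 3 h and chick 86 at D3 stood apart, with median correlations to their group of 0.946 and 0.947, and counts were also taken without them. Chick 86 was the highest of its group in CD3D, VPREB3, SERPINC1 and ALB, markers of lymphocytes and of plasma protein synthesis. The mean of 4 W-linked genes was high in 4 of 10 chicks at 3 h and in 4 of 8 at D3. Markers of red cells (HBA1, SLC4A1), thrombocytes (GP9, ITGB3), T cells (CD3E), B cells (BTK), heterophils (CSF3R) and monocytes (LY86) all had medians above 6.26, the level under which the lowest 40% of probe sets lie. The liver and endothelial markers ALB, TTR, FGB and CDH5 had medians at 3 h of 4.77, 4.66, 4.32 and 4.44, all below it. Not all genes of such tissues were: SERPINC1 and PECAM1 lay above that level at 3 h. Means below it were found in 14 of 19 plasma protein genes and 9 of 14 muscle, endothelial and stromal markers. The same held for 5 of 15 B cell genes and 5 of 20 T cell genes. The markers GATA1, ITGA2B, CSF1R, CD14, PAX5, CD28 and IL2RB were not analysed here.

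The change over these 3 days was broad and ran in both directions. At D3, 5158 of 20804 probe sets differed from 3 h (24.8%), of which 2453 were higher (11.8%) and 2705 lower (13.0%). Among the 11528 named genes, each represented by its probe set with the highest mean, 1409 were higher (12.2%) and 1863 lower (16.2%), and the median difference over all of them was 0.00. These shares are the background for every gene group below. Most called differences were small: 463 probe sets moved at least 2-fold, 240 upwards and 223 downwards. In 317 probe sets (1.52%) all 8 D3 chicks lay above all 10 chicks at 3 h, and in 285 (1.37%) all 8 lay below. Leaving out chicks 74 and 86 gave 5053 calls. The shares over all probe sets include 895 rows that repeat the values of an earlier row. They also include 2020 rows with identifiers below the first annotated probe set. A fit without both kinds of row gave 5034 calls.

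**Figure D1:**
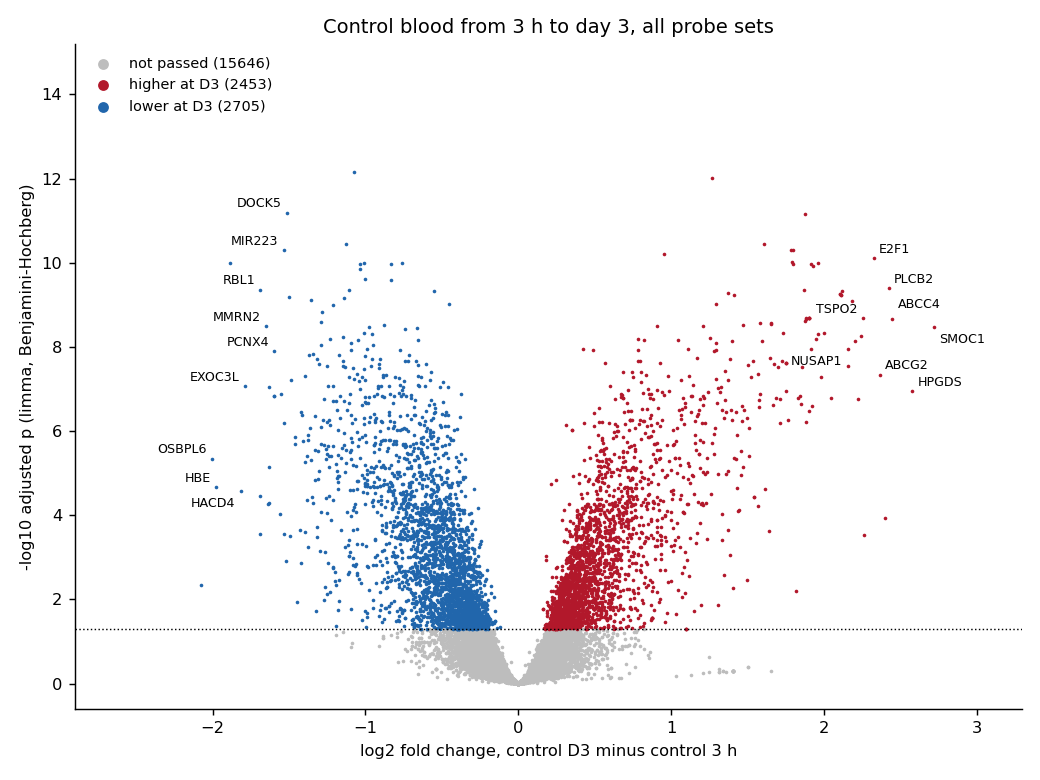
Log2 difference between control chicks at D3 and at 3 h for each probe set (vertical axis: minus log10 of the adjusted p; horizontal axis: log2 difference), with the 2453 called higher in red, the 2705 called lower in blue and some of the largest named changes labelled. SMOC1 (2.72) lies farthest to the right and OSBPL6 (-2.00) farthest to the left among the labelled genes.

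The 15 largest rises among named genes held cell-cycle genes, membrane transporters and an interferon-induced gene. SMOC1, a secreted calcium-binding matrix protein, ran from 6.73 to 8.19 (median 7.42) at 3 h and from 9.30 to 10.98 (median 10.44) at D3. All 8 D3 chicks were above all 10 at 3 h, and the rise was 2.72 ± 0.32 (6.60-fold, adjusted p = 3.35e-09). HPGDS, the enzyme that makes prostaglandin D, ran from 5.02 to 6.85 (median 5.87) at 3 h and from 7.94 to 9.23 (median 8.43) at D3. The groups were again separate, and the gene rose by 2.58 ± 0.35 (adjusted p = 1.13e-07). The exporters ABCC4, which moves cyclic nucleotides and organic anions, and ABCG2, which moves porphyrins and urate, rose by 2.45 ± 0.28 and 2.37 ± 0.31. ABCC4 ran from 6.73 to 7.41 (median 7.03) at 3 h and from 9.08 to 9.80 (median 9.50) at D3. ABCG2 ran from 5.76 to 7.32 (median 6.83) at 3 h and from 8.68 to 10.02 (median 8.89) at D3, so that in both transporters no D3 chick reached down into the 3 h range. PLCB2, a phospholipase C of blood cells, rose by 2.42 ± 0.26, and PLS1, which bundles actin, by 2.23 ± 0.31.

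Of these 15 genes, 13 had every D3 chick above every chick at 3 h, against 1.52% of all probe sets. The exceptions were PLS1, with 7 of 8, and DDX60, with 5 of 8. The genes were chosen by the size of the same difference, a choice that favours such separation. TSPO2, the red cell member of the translocator protein family, ran from 9.76 to 11.04 (median 10.42) at 3 h and from 12.06 to 13.05 (median 12.78) at D3 and rose by 2.26 ± 0.26 (adjusted p = 2.1e-09). MPP6, a membrane scaffold protein, rose by 2.00 ± 0.24. The other members were E2F1, NUSAP1, NEK2, TOP2A, HMGB3 and CDK1, all tied to the cell cycle or to chromatin and described with that group. All 15 also rose in the CpG chicks.

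The 15 largest falls were of mixed function. OSBPL6, which belongs to the oxysterol-binding family, ran from 8.98 to 10.98 (median 10.43) at 3 h and from 7.08 to 9.39 (median 8.22) at D3. It fell by 2.00 ± 0.33 (adjusted p = 4.5e-06), and 6 of 8 D3 chicks lay below all chicks at 3 h. HBE, an embryonic globin described below, was next. HACD4, an enzyme of very long fatty acid synthesis, fell by 1.82 ± 0.33, and EXOC3L, related to the exocyst, by 1.79 ± 0.24. MMRN2, a matrix glycoprotein of vessel walls, ran from 8.88 to 9.61 (median 9.15) at 3 h and from 7.11 to 8.43 (median 7.46) at D3 and fell by 1.65 ± 0.19 (adjusted p = 3.25e-09). Its groups did not overlap. CALCRL, the receptor for adrenomedullin, fell by 1.55 ± 0.21.

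DOCK5, an activator of the small GTPase Rac, ran from 8.86 to 9.84 (median 9.36) at 3 h and from 7.56 to 8.02 (median 7.74) at D3. The groups were far apart for their spread, with a fall of 1.51 ± 0.14 (adjusted p = 6.4e-12). MIR223, the gene of a miRNA best known from the myeloid lineage, ran from 7.58 to 8.44 (median 8.17) at 3 h and from 5.91 to 7.20 (median 6.60) at D3 and fell by 1.53 ± 0.15 (adjusted p = 4.96e-11), with no overlap. Which form of this RNA the probe set reads, precursor or mature, is not known from the sources used here. DIRAS2, a small GTPase, fell by 1.64 ± 0.31, DGKH, a diacylglycerol kinase, by 1.63 ± 0.28, and HPCAL1, a calcium sensor, by 1.53 ± 0.33. TMEM86A, PCNX4 and FRMD1 fell by 1.63 ± 0.22, 1.60 ± 0.20 and 1.53 ± 0.23. In 9 of the 15 genes, likewise chosen by the size of the difference, all 8 D3 chicks lay below all chicks at 3 h, against 1.37% of all probe sets.

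**Figure D2:**
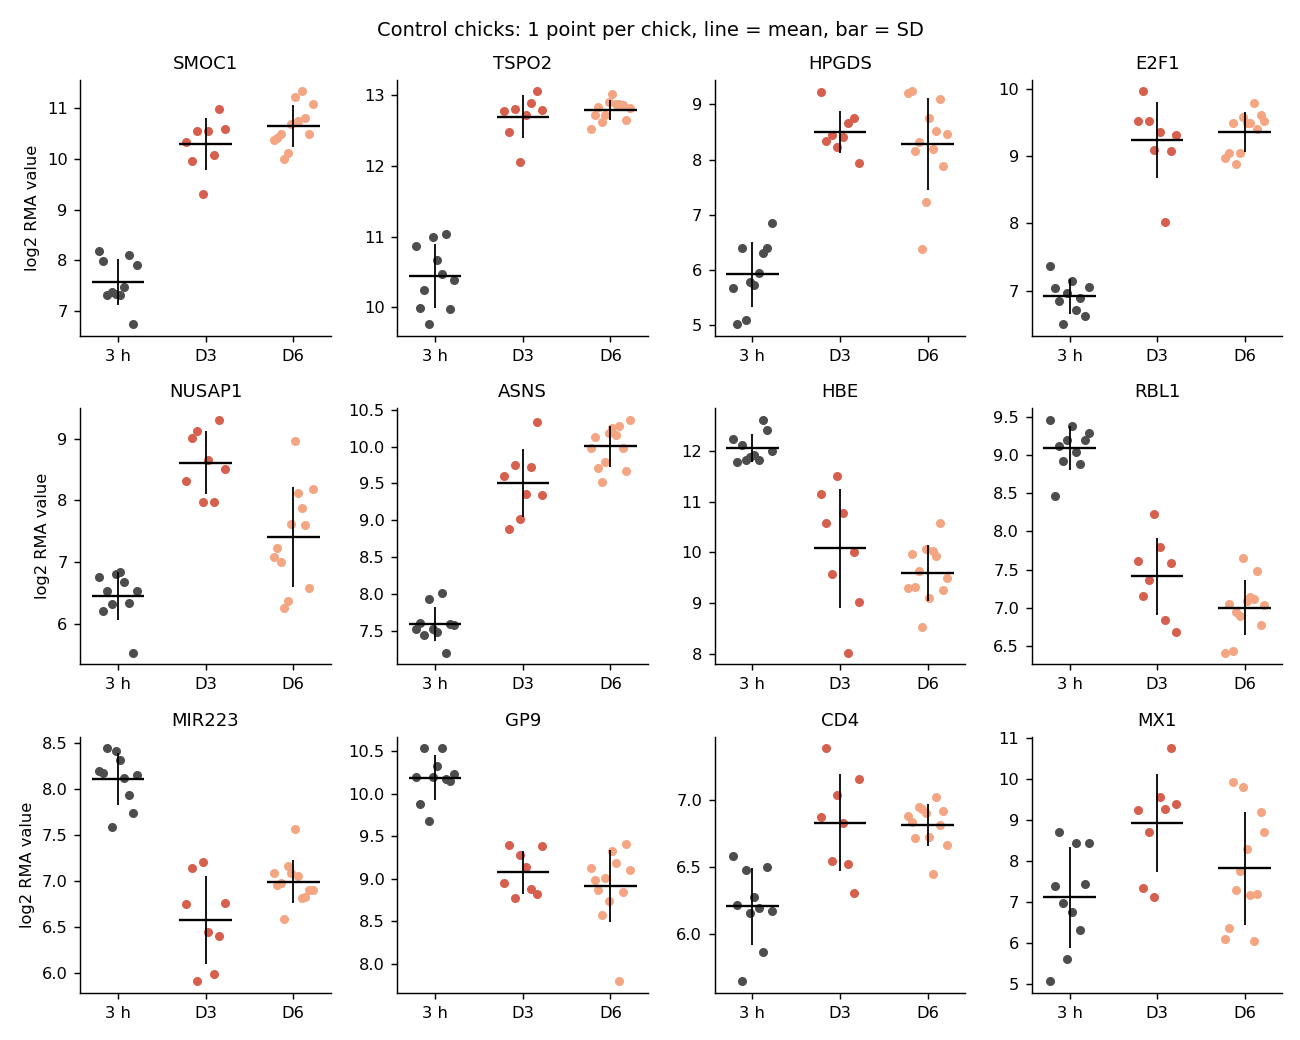
Log2 expression value of selected genes in each control chick (1 point per chick, horizontal line at the group mean, vertical bar 1 SD each way) at 3 h (10 chicks), D3 (8) and D6 (12). SMOC1, TSPO2, HPGDS, E2F1, NUSAP1 and ASNS at D3 lie wholly above 3 h, HBE, RBL1, MIR223 and GP9 wholly below, and the groups overlap in CD4 and MX1.

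Genes of mitosis had the largest share of rises among the lists with at least 8 measured genes. Of 28 measured genes of mitosis, 22 rose (78.6%, against 12.2% of named genes) and 1 fell, with a median difference of 1.16 against 0.00 over named genes. The mean of the list ran from 6.27 to 6.75 over the 10 chicks at 3 h and from 7.10 to 8.16 over the 8 chicks at D3, with no overlap. The count was the same, 22, without chicks 74 and 86. In a bulk sample such as this, fewer cells of a type and less RNA per cell cannot be told apart, and the same holds for more of either.

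Genes of the spindle were prominent in that list. TPX2, which activates the kinase AURKA on the spindle, ran from 6.80 to 7.72 (median 7.39) at 3 h and from 8.61 to 9.98 (median 8.95) at D3. All D3 chicks lay above all chicks at 3 h, and the rise was 1.80 ± 0.18 (adjusted p = 1.07e-10). NUSAP1, which binds spindle microtubules, ran from 5.53 to 6.83 (median 6.54) at 3 h and from 7.97 to 9.31 (median 8.58) at D3 and rose by 2.16 ± 0.27. SPC25, a kinetochore protein, rose by 1.68 ± 0.21, and KIF4B, the array's symbol for the chromosome-bound motor KIF4A, by 1.40 ± 0.17. CDK1, the kinase that starts mitosis, ran from 5.74 to 6.75 (median 6.18) at 3 h and from 7.04 to 9.31 (median 8.03) at D3 and rose by 1.92 ± 0.27 (adjusted p = 2.54e-07). TOP2A, the topoisomerase that untangles sister chromatids, rose by 2.05 ± 0.29, and so did NEK2, a centrosome kinase outside the list, by 2.12 ± 0.23. The member counted as a fall, the kinetochore gene CENPF, had probe sets that disagreed: the one with the higher mean fell by 0.33 ± 0.10, and the other rose by 1.43 ± 0.24. It was the only gene of the lists with called probe sets in opposite directions, among 6 such genes in all. The largest differences among members that did not pass were 0.27 ± 0.18 in NUF2 and 0.23 ± 0.19 in CCNB1, whose entry also carries the synonym CCNB2.

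Genes of DNA replication changed with the same sign. Of 37 measured, 23 rose (62.2%) and 1 fell, and the median was 0.42. E2F1, the transcription factor of S-phase entry, ran from 6.50 to 7.37 (median 6.93) at 3 h and from 8.03 to 9.97 (median 9.34) at D3. The groups were separate even though chick 90 was low for D3, and the rise was 2.33 ± 0.23 (5.01-fold, adjusted p = 7.77e-11). CDC45, which is part of the replicative helicase, ran from 5.91 to 6.56 (median 6.05) at 3 h and from 7.05 to 7.98 (median 7.39) at D3 and rose by 1.29 ± 0.16. RRM2, the small subunit of the enzyme that makes deoxyribonucleotides, rose by 1.85 ± 0.26, and E2F8, an E2F factor that represses, by 1.47 ± 0.22. The member that fell was ORC1, of the origin recognition complex, by 0.81 ± 0.20. CCNE1 and SLBP differed by 0.31 ± 0.12 and 0.30 ± 0.24 and did not pass.

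RBL1, a pocket protein that represses E2F targets, moved the other way and was among the largest falls. It ran from 8.47 to 9.46 (median 9.16) at 3 h and from 6.69 to 8.23 (median 7.48) at D3. Every D3 chick lay below every chick at 3 h, and the fall was 1.69 ± 0.18 (adjusted p = 4.37e-10). Among chromatin genes, HMGB3 and HMGB2, which bend DNA, rose by 1.96 ± 0.20 and 1.13 ± 0.16, and the demethylase KDM5B by 0.70 ± 0.13. DNMT3B, a DNA methyltransferase that acts on unmethylated sites, ran from 7.40 to 8.11 (median 7.68) at 3 h and from 6.49 to 7.37 (median 6.94) at D3 and fell by 0.77 ± 0.10 (adjusted p = 7.85e-08). Of the 21 epigenetic regulators measured, 6 rose (28.6%, against 12.2% of named genes) and 4 fell (19.0%, against 16.2%), and the median was 0.06. HMGA2 and EZH2, at -0.49 ± 0.33 and 0.30 ± 0.14, did not pass.

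**Figure D3:**
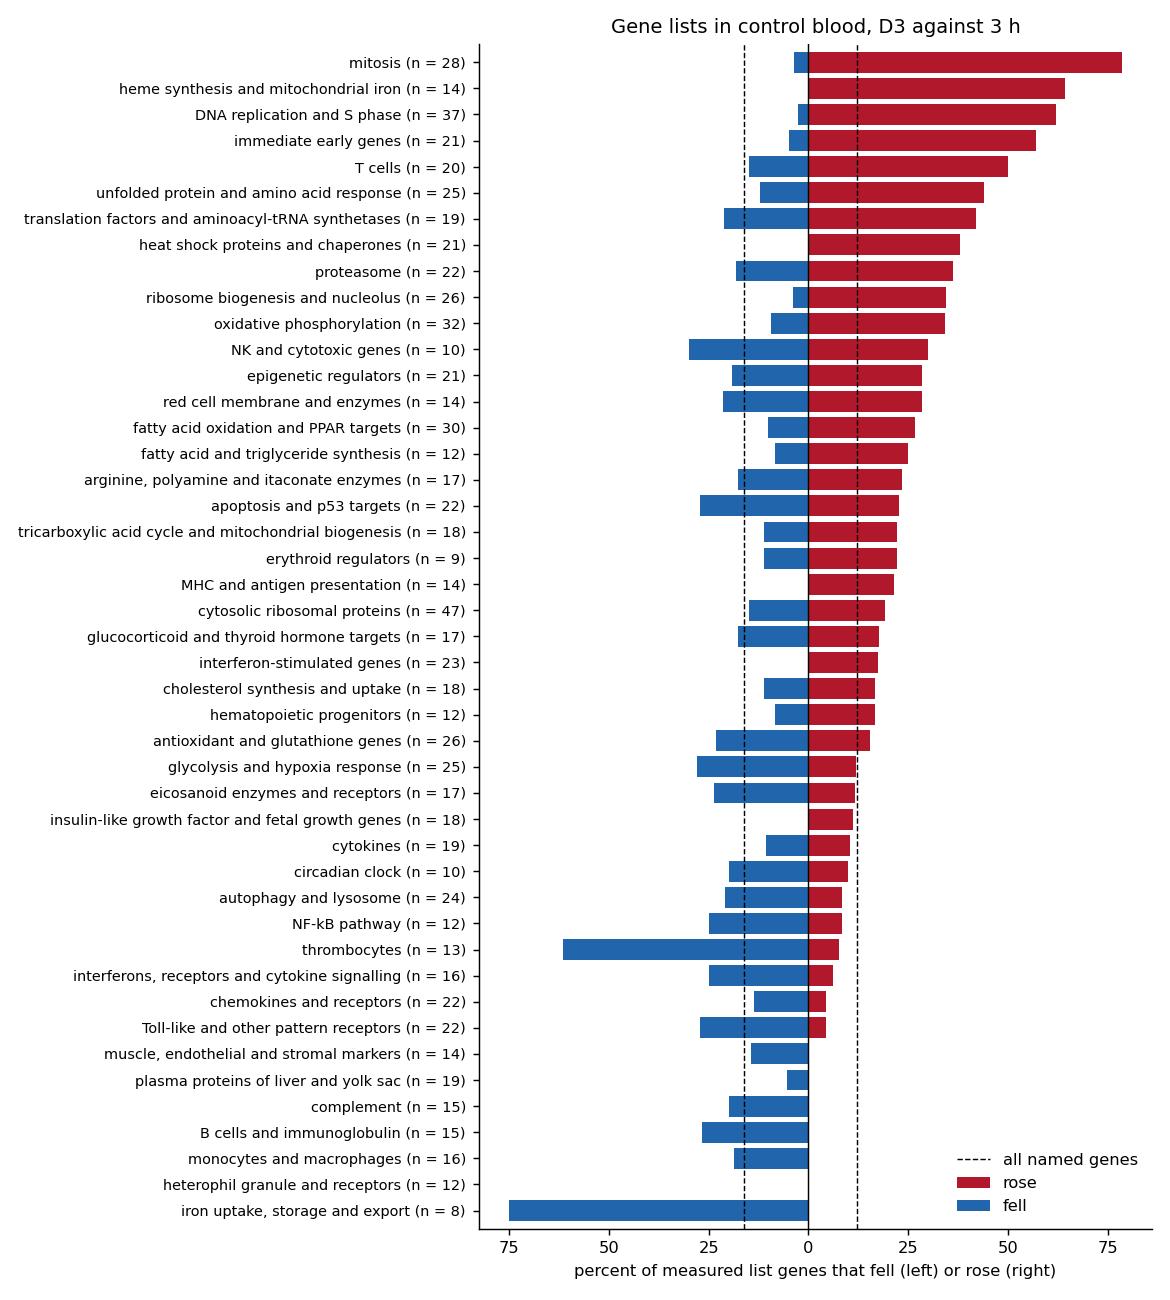
Share of measured genes that rose (right) or fell (left) from 3 h to D3 in control chicks, for each gene list with at least 8 measured genes, with blue for fell and red for rose and dashed lines at the shares over all named genes (12.2% rose, 16.2% fell). Mitosis (22 of 28), DNA replication (23 of 37) and heme synthesis (9 of 14) have the largest shares that rose, and iron handling (6 of 8) and thrombocytes (8 of 13) the largest that fell.

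In the red cell lineage 1 of the 2 measured embryonic globins, HBE, fell, and both measured alpha globins listed as adult rose slightly. The listed adult beta globins HBBA and HBB and the embryonic HBRHO and HBPI matched no probe set and were not measured. HBE, an embryonic beta-type globin, ran from 11.77 to 12.61 (median 11.96) at 3 h and from 8.02 to 11.50 (median 10.29) at D3. All 8 D3 chicks lay below all 10 at 3 h, the D3 chicks spread more widely, and the fall was 1.98 ± 0.36 (3.94-fold, adjusted p = 2.15e-05). The alpha globins listed as adult, HBA1 and HBAD, are near the top of the array's scale. HBA1 ran from 13.93 to 14.12 (median 14.04) at 3 h and from 14.21 to 14.29 (median 14.24) at D3, a small but non-overlapping rise of 0.21 ± 0.04 (adjusted p = 1.78e-05). HBAD rose by 0.18 ± 0.04 (adjusted p = 0.00114), with 7 of 8 D3 chicks above all chicks at 3 h. Whether values so near the top of the scale are saturated is not known from the table. HBZ, an embryonic alpha-type globin, differed by 0.01 ± 0.25 and did not pass. Counted by list, repeating the quantile normalization left 1 of the 2 alpha globins called, and so did a fit of the compared control arrays alone.

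Heme is made by a chain of enzymes that begins and ends in the mitochondrion. Of the 14 measured genes of heme synthesis and mitochondrial iron, 9 rose (64.3%) and none fell, with a median of 0.59. The list mean ran from 9.94 to 10.19 at 3 h and from 10.36 to 10.77 at D3. SLC25A37 (mitoferrin), which brings iron into the mitochondrion, ran from 11.68 to 12.50 (median 12.17) at 3 h and from 12.70 to 13.09 (median 13.04) at D3. It rose by 0.87 ± 0.12 (adjusted p = 1.35e-07) with no overlap. UROS, which closes the porphyrin ring, ran from 8.18 to 8.77 (median 8.39) at 3 h and from 8.93 to 9.99 (median 9.60) at D3 and rose by 1.09 ± 0.15. CPOX, a later enzyme of the chain, rose by 0.79 ± 0.12, and the mitochondrial carrier SLC25A39 by 0.73 ± 0.11. At the ends of the chain, ALAS1, which starts it, rose by 0.65 ± 0.15, and FECH, which puts iron into the ring, by 0.91 ± 0.19. UROD rose by 0.85 ± 0.16. The ALAS1 entry carries the synonym ALAS2, but ALAS2 is a separate gene with no matched probe set of its own. The importer SLC11A2 and the carrier SLC25A38 differed by 0.46 ± 0.23 and 0.15 ± 0.10 and did not pass.

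Cellular iron handling moved the other way. Of 8 measured genes of iron uptake, storage and export, none rose and 6 fell (75.0%, against 16.2%), with a median of -0.25. In a fit of these 18 arrays alone 3 of the falls passed. IREB2, an RNA-binding sensor of low iron, ran from 11.32 to 11.83 (median 11.62) at 3 h and from 10.96 to 11.32 (median 11.08) at D3, a fall of 0.47 ± 0.07 (adjusted p = 3.5e-07). HMOX1, which breaks heme down, ran from 8.23 to 9.87 (median 9.18) at 3 h and from 7.34 to 9.25 (median 7.87) at D3 and fell by 1.08 ± 0.23 (adjusted p = 0.000222). Most D3 chicks were below all chicks at 3 h in both genes. FTH1, the ferritin heavy chain, fell by 0.16 ± 0.05, although chick 74 at 3 h was the lowest of all at 13.55. SLC40A1 (ferroportin), the iron exporter, fell by 0.44 ± 0.15, a call that ended without chick 75 or without chick 85. HMOX2 and ACO1 differed by -0.24 ± 0.10 and 0.13 ± 0.15 and did not pass.

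Red cell membrane genes divided. Of 14 measured, 4 rose (28.6%, against 12.2% of named genes) and 3 fell (21.4%, against 16.2%), with a median of 0.20. SLC4A1, the anion exchanger of the red cell membrane, ran from 12.55 to 12.92 (median 12.82) at 3 h and from 13.01 to 13.44 (median 13.27) at D3, and it rose by 0.49 ± 0.06 (adjusted p = 1.17e-08) with separate groups. EPB42, which anchors that exchanger, rose by 0.80 ± 0.13, and TSPO2, given above, and XK, a membrane protein of red cells (1.07 ± 0.32), were the other rises. EPB41, which joins spectrin to actin, ran from 12.64 to 12.98 (median 12.80) at 3 h and from 12.32 to 12.82 (median 12.56) at D3 and fell by 0.25 ± 0.06 (adjusted p = 0.000479). The other falls were BPGM, which makes bisphosphoglycerate (-0.54 ± 0.16), and CA2, a carbonic anhydrase (-0.12 ± 0.04). The Rh protein gene RHCE and the water channel AQP3, at 0.79 ± 0.35 and 0.25 ± 0.12, did not pass.

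Among 9 erythroid regulators, 2 rose (22.2%, against 12.2% of named genes) and 1 fell (11.1%, against 16.2%). IKZF1, a zinc finger factor of lymphoid and red cell development, ran from 7.77 to 8.75 (median 8.17) at 3 h and from 9.12 to 10.06 (median 9.51) at D3, a rise of 1.32 ± 0.18 (adjusted p = 1.2e-07) with no overlap. MYB, a factor of immature cells, rose by 0.52 ± 0.13. GFI1B, a repressor of the red cell and thrombocyte lineages, ran from 11.93 to 12.44 (median 12.12) at 3 h and from 11.02 to 11.78 (median 11.63) at D3 and fell by 0.56 ± 0.08 (adjusted p = 4.78e-07), again with separate groups. HEMGN, a nuclear protein of red cell precursors, differed by 0.03 ± 0.18, and TRIM58 by 0.27 ± 0.12, and neither passed. Of 12 progenitor genes, 2 rose (16.7%, against 12.2%) and 1 fell (8.3%, against 16.2%). The rises were MYB and HOXA9 (0.35 ± 0.11, a call that ended without chick 86), and the fall was MEIS1 (-0.40 ± 0.12). KIT, a growth factor receptor of progenitors, and SPI1, a myeloid factor, stood at 0.28 ± 0.14 and -0.47 ± 0.24 and did not pass.

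Thrombocyte genes were lower at D3. Of 13 measured, 8 fell (61.5%) and 1 rose, and the median was -0.48. The list mean ran from 9.18 to 9.77 at 3 h and from 9.04 to 9.39 at D3, with some overlap. GP9, part of the receptor for von Willebrand factor, ran from 9.68 to 10.53 (median 10.19) at 3 h and from 8.78 to 9.39 (median 9.04) at D3. All 8 D3 chicks lay below all 10 at 3 h, and the fall was 1.11 ± 0.16 (adjusted p = 2.18e-07). PLEK, a signalling protein of platelets in mammals, ran from 9.99 to 10.80 (median 10.49) at 3 h and from 9.49 to 9.92 (median 9.73) at D3, likewise with no overlap, and fell by 0.74 ± 0.12. RAP1B, the GTPase that activates integrins, fell by 0.70 ± 0.12, and ITGB3, the integrin subunit that binds fibrinogen, by 0.59 ± 0.14. GP1BB, a partner of GP9, fell by 0.48 ± 0.11, and SELP, an adhesion receptor, by 0.35 ± 0.13, with an adjusted p of 0.0487 and a call that ended without any of 13 chicks taken singly. The gene that rose, TUBB1, ran from 11.05 to 12.07 (median 11.75) at 3 h and from 12.60 to 13.33 (median 13.13) at D3 and increased by 1.39 ± 0.17 (adjusted p = 1.94e-08). It encodes a beta tubulin that in birds is known from the marginal band of both thrombocytes and red cells. P2RY1 and THBS1, at 0.35 ± 0.16 and -0.09 ± 0.12, did not pass.

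Eicosanoids, lipid mediators that include the thromboxane of thrombocytes, are made from arachidonic acid. Of 17 eicosanoid genes, 4 fell (23.5%, against 16.2%) and 2 rose (11.8%, against 12.2%), and the median was -0.01. PLA2G4A, which frees arachidonic acid, ran from 6.82 to 8.04 (median 7.13) at 3 h and from 5.61 to 6.44 (median 6.05) at D3. The groups did not overlap, and the fall was 1.19 ± 0.17 (adjusted p = 1.92e-07). PTGS1, the constitutive cyclooxygenase, fell by 0.48 ± 0.13, and TBXAS1, thromboxane synthase, which is also counted among the thrombocyte genes, by 0.73 ± 0.14. HPGDS, given above, went the other way. LTC4S and ANXA2 differed by -0.32 ± 0.13 and 0.40 ± 0.29 and did not pass.

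T cell genes were more often higher than lower. Of 20 measured, 10 rose (50.0%) and 3 fell, with a median of 0.23; without chicks 74 and 86 the counts were 8 and 2. The list mean ran from 6.77 to 6.97 at 3 h and from 6.72 to 7.56 at D3, and chick 86 was the highest. CD4, the helper cell co-receptor, ran from 5.65 to 6.58 (median 6.20) at 3 h and from 6.31 to 7.38 (median 6.85) at D3. It rose by 0.62 ± 0.15 (adjusted p = 0.00116), with 5 of 8 D3 chicks above all chicks at 3 h. CD3E, a chain of the T cell receptor complex, ran from 6.17 to 7.27 (median 6.80) at 3 h and from 6.77 to 8.04 (median 7.42) at D3 and rose by 0.60 ± 0.18 (adjusted p = 0.00818). BCL11B, a factor of T cell identity, rose by 0.67 ± 0.14, RHOH, a GTPase of receptor signalling, by 0.47 ± 0.10, and the adaptor TRAT1 by 0.66 ± 0.16. The 3 that fell were CD247, another chain of the same complex (-0.75 ± 0.28), SATB1, a chromatin organiser (-0.65 ± 0.18), and GATA3, a factor of helper cells (-0.52 ± 0.15). CD3D, CD8A, CD8BP and LCK differed by 0.25 ± 0.13, 0.09 ± 0.11, 0.22 ± 0.09 and 0.15 ± 0.11 and did not pass. The rise of CD5, 0.20 ± 0.08, passed at 0.0484 and ended without any of 14 chicks taken singly.

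B cell genes showed no rise. Of 15 measured, 4 fell (26.7%, against 16.2% of named genes), and the median was 0.00. CR2, a complement receptor, ran from 9.88 to 11.50 (median 11.11) at 3 h and from 8.79 to 11.08 (median 9.46) at D3. Of the D3 chicks 5 lay below all chicks at 3 h, and the fall was 1.38 ± 0.26 (adjusted p = 4.42e-05). IRF4, a factor of activated B cells and plasma cells, ran from 7.18 to 8.91 (median 7.87) at 3 h and from 6.21 to 7.51 (median 6.71) at D3 and fell by 1.25 ± 0.20 (adjusted p = 2.32e-06). SH2D6, matched to the adaptor BLNK through a synonym that is doubtful, fell by 0.80 ± 0.15, and the survival cytokine TNFSF13B by 0.55 ± 0.16. The receptor genes gave no such difference, with CD79B at 0.09 ± 0.09, and BTK, BLK and VPREB3, at -0.27 ± 0.12, 0.04 ± 0.10 and 0.27 ± 0.11, did not pass.

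Genes of natural killer and cytotoxic cells went both ways, 3 up (30.0%, against 12.2% of named genes) and 3 down (30.0%, against 16.2%) of 10. LOC769174, which the annotation lists under the synonym KLRD1, a lectin-like receptor, ran from 8.76 to 9.66 (median 9.42) at 3 h and from 7.81 to 8.80 (median 8.35) at D3 and fell by 1.00 ± 0.16 (adjusted p = 1.25e-06). CST7, an inhibitor of cathepsins, fell by 0.92 ± 0.17, and the chemokine XCL1 by 0.61 ± 0.15. EOMES, a factor of cytotoxic cells, rose by 0.37 ± 0.10. GZMA, a granule protease, SH2D1A and CD7 differed by -0.11 ± 0.14, 0.21 ± 0.12 and 0.19 ± 0.18 and did not pass. Without chick 86 or in a fit of these arrays alone, 1 of the 3 rises passed.

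None of the 12 heterophil genes and none of the 6 beta-defensins passed, against 28.4% of named genes in either direction. The SEs of the genes given here were 0.21 to 0.43, against a median of 0.117 over all probe sets. Moderate differences could therefore have been missed, and the absence of calls does not show that these genes were stable. The cathelicidins listed with the defensins matched no probe set and were not measured. Without chicks 74 and 86, 1 heterophil gene fell. CSF3R, the receptor of the granulocyte growth factor, ran from 8.36 to 10.10 (median 9.37) at 3 h and from 8.99 to 10.01 (median 9.58) at D3. The groups lay over each other, with a difference of 0.14 ± 0.21. AvBD7, a defensin stored in heterophil granules, varied widely from 5.10 to 9.13 (median 7.84) at 3 h and from 5.43 to 8.37 (median 7.50) at D3 and differed by -0.24 ± 0.43. AvBD1, DEFB4A (AvBD2) and LECT2, the synonym of the granule protein MIM1, stood at -0.23 ± 0.27, -0.31 ± 0.28 and -0.28 ± 0.32. S100A12, a calcium-binding protein of granulocytes, and LYG2, a lysozyme, differed by 0.57 ± 0.29 and -0.48 ± 0.34.

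Of 16 monocyte and macrophage genes 3 fell (18.8%, near the 16.2% of named genes), and the median was -0.29. CTSB, a lysosomal protease, ran from 10.53 to 11.03 (median 10.84) at 3 h and from 10.04 to 10.92 (median 10.34) at D3, with 6 of 8 D3 chicks below all chicks at 3 h, and fell by 0.43 ± 0.12 (adjusted p = 0.00563). The phosphatidylserine receptor TIMD4 fell by 0.33 ± 0.09 and the protease CTSD by 0.29 ± 0.09. LY86, TREM2 and CD36 differed by -0.09 ± 0.23, -0.29 ± 0.14 and -0.70 ± 0.35 and did not pass. Of 15 complement genes 3 fell (20.0%, also near that share). They were the membrane regulators CD59 (-0.66 ± 0.11) and CD55 (-0.18 ± 0.05) and the protease C1R (-0.28 ± 0.09), whose call ended without chick 74 or 75.

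Of 22 genes of receptors that sense microbes and of their adaptors and kinases, 6 fell (27.3%, against 16.2% of named genes). In the same list 1 rose (4.5%, against 12.2%), and the median was -0.12. LY96, the partner of TLR4 in sensing lipopolysaccharide, ran from 6.94 to 10.20 (median 8.92) at 3 h and from 6.72 to 7.91 (median 7.24) at D3. The 3 h chicks spread over a wide range that took in 5 of the 8 D3 chicks, and the fall was 1.49 ± 0.32 (adjusted p = 0.000311). TICAM1, the adaptor of TLR3, ran from 7.68 to 8.12 (median 7.93) at 3 h and from 6.93 to 7.64 (median 7.47) at D3 and fell by 0.54 ± 0.11 (adjusted p = 0.000124) with no overlap. TLR3, a sensor of viral RNA, fell by 1.18 ± 0.39 (adjusted p = 0.018), a call that ended without chick 86. CGAS, a sensor of DNA in the cytosol, rose by 0.53 ± 0.13. TLR4 and TLR2 differed by -0.40 ± 0.18 and -0.38 ± 0.21 and did not pass. Without chicks 74 and 86 the falls numbered 4.

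Interferon-stimulated genes varied among chicks of the same age more than most groups. Of 23 measured, 4 rose (17.4%, against 12.2% of named genes) and none fell, and the median was 0.06. At 3 h the list mean was 7.77 in chick 73 and 8.67 in chick 77, and between 9.36 and 10.85 in the other 8; at D3 it lay between 9.23 and 10.37. DDX60, an antiviral helicase, ran from 4.66 to 6.86 (median 5.16) at 3 h and from 5.72 to 9.46 (median 8.02) at D3, and chick 75 was the highest of its group. Of the D3 chicks 5 lay above all of these, and the rise was 2.40 ± 0.48 (adjusted p = 0.000117). MX1, an antiviral GTPase, ran from 5.07 to 8.71 (median 7.18) at 3 h and from 7.12 to 10.75 (median 9.26) at D3 and rose by 1.82 ± 0.52 (adjusted p = 0.00645). EPSTI1 rose by 1.31 ± 0.41 and IRF1, a factor downstream of interferon, by 0.75 ± 0.21. RSAD2 (viperin) ran from 6.31 to 12.20 (median 11.38) at 3 h and from 8.32 to 10.16 (median 9.58) at D3. Its D3 range lay inside the 3 h range, and the difference of -1.19 ± 0.49 did not pass (adjusted p = 0.0701). EIF2AK2, the kinase that senses viral RNA, stood at -0.47 ± 0.34 and did not pass.

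**Figure D4:**
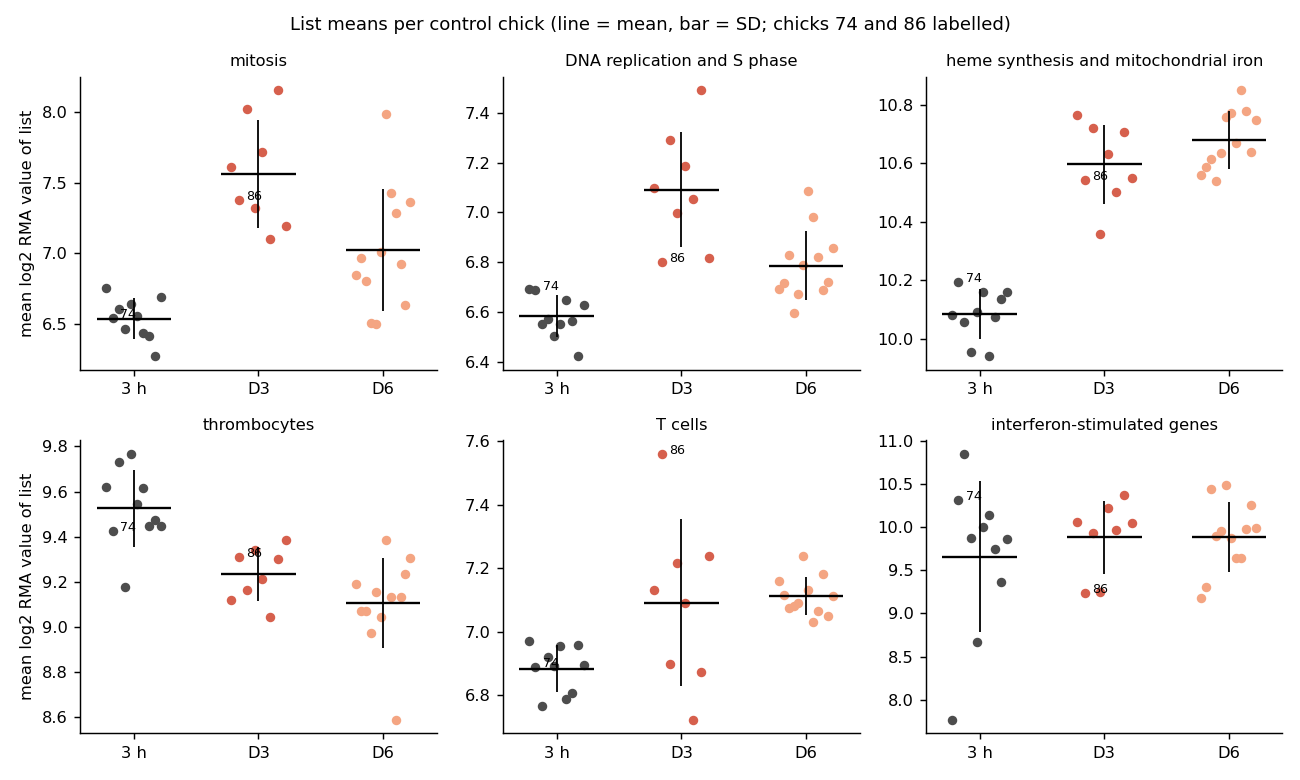
Mean log2 value of the measured genes of 6 lists in each control chick (1 point per chick, line at the group mean, vertical bar 1 SD each way, chicks 74 and 86 labelled) at 3 h (10 chicks), D3 (8) and D6 (12). The mitosis, DNA replication and heme lists at D3 lie wholly above 3 h, chick 86 has the highest T cell mean (7.56), and the interferon-stimulated list has 2 low chicks at 3 h (7.77 and 8.67).

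Among 16 genes of interferons, their receptors and cytokine signalling, 4 fell (25.0%, against 16.2% of named genes) and 1 rose (6.25%, against 12.2%). JAK2, the kinase behind the erythropoietin and many cytokine receptors, ran from 12.66 to 13.13 (median 12.88) at 3 h and from 11.60 to 12.51 (median 12.13) at D3. All D3 chicks were below all chicks at 3 h, a fall of 0.77 ± 0.11 (adjusted p = 1.48e-07). SOCS1 and SOCS5, feedback inhibitors of such signalling, fell by 1.17 ± 0.31 and 0.34 ± 0.09. CISH, an inhibitor induced by STAT5 signalling, rose by 0.50 ± 0.14. STAT5A and SOCS2, at 0.25 ± 0.11 and 0.25 ± 0.12, did not pass. Of 14 antigen presentation genes 3 rose (21.4%, against 12.2% of named genes) and none fell (against 16.2%). The rises were all of the class I peptide-loading machinery. They were TAP1 (0.37 ± 0.11) and TAP2 (0.41 ± 0.13), which pump peptides, and TAPBPL (0.48 ± 0.14), a tapasin relative. TAPBP and the class I gene BF2, at 0.33 ± 0.15 and 0.32 ± 0.20, did not pass.

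Cytokine genes were mostly at low values, with 13 of 19 below 6.26 in mean. Of the 19, 2 rose (10.5%, against 12.2% of named genes) and 2 fell (10.5%, against 16.2%). TNFSF10, a death ligand, ran from 6.69 to 8.10 (median 7.56) at 3 h and from 6.71 to 7.27 (median 6.88) at D3 and fell by 0.60 ± 0.13 (adjusted p = 0.000258). The other 3 calls, TNFSF8 (0.23 ± 0.09), TGFB3 (0.25 ± 0.09) and IL2 (-0.33 ± 0.13), had adjusted p-values of 0.04, 0.0483 and 0.0473. They ended without any of several single chicks and without chicks 74 and 86 together. With repeated quantile normalization or with median centring, neither TNFSF8 nor TGFB3 passed. IL15 and IL18 stood at 0.76 ± 0.31 and -0.28 ± 0.14 and did not pass. Of 22 chemokine and chemokine receptor genes, 3 fell (13.6%, against 16.2% of named genes) and 1 rose (4.5%, against 12.2%). CXCR7, a scavenging receptor, ran from 12.30 to 12.82 (median 12.76) at 3 h and from 11.62 to 12.24 (median 12.04) at D3. The groups were separate, and the fall was 0.63 ± 0.09 (adjusted p = 4.52e-07). CXCR4, its signalling relative, fell by 0.37 ± 0.11 and CXCL13L2 by 0.41 ± 0.12. ACKR4, which scavenges homing chemokines, ran from 4.53 to 5.52 (median 5.06) at 3 h and from 4.50 to 7.65 (median 6.47) at D3 and rose by 1.35 ± 0.35, with 6 D3 chicks above and 1 below all chicks at 3 h. CCR6 and S1PR1 differed by -0.28 ± 0.14 and -0.25 ± 0.16 and did not pass.

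In the NF-kB pathway 3 of 12 genes fell (25.0%, against 16.2% of named genes) and 1 rose (8.3%, against 12.2%). NFKB1, a subunit of the factor, ran from 8.67 to 9.59 (median 9.20) at 3 h and from 8.35 to 8.81 (median 8.55) at D3, a fall of 0.57 ± 0.11 (adjusted p = 3.44e-05). CHUK and IKBKB, kinases that release it, fell by 0.42 ± 0.09 and 0.37 ± 0.12, the second a call that ended without chick 90 or 91. NFKBIA, its inhibitor, rose by 0.69 ± 0.16. REL and TNFAIP3 differed by -0.45 ± 0.19 and 0.31 ± 0.15 and did not pass.

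Glycolysis and the response to low oxygen included falls without overlap of the groups. Of 25 genes 7 fell (28.0%) and 3 rose, although the median was 0.11; without chicks 74 and 86 the counts were 8 and 0. HIF1A, the oxygen-regulated transcription factor, ran from 6.57 to 7.65 (median 7.34) at 3 h and from 5.44 to 6.50 (median 5.85) at D3. No D3 chick reached the 3 h range, and the fall was 1.40 ± 0.18 (adjusted p = 4.77e-08). GPI, an early glycolytic enzyme, ran from 10.31 to 10.94 (median 10.75) at 3 h and from 9.38 to 10.12 (median 9.60) at D3, a fall of 1.01 ± 0.15 (adjusted p = 4.81e-07), also without overlap. BNIP3, a mitophagy gene induced by low oxygen, fell by 0.89 ± 0.14, and LDHA, lactate dehydrogenase, by 0.55 ± 0.11. The remaining falls were NDRG1 (-0.45 ± 0.12), P4HA1 (-0.42 ± 0.12) and PFKP (-0.41 ± 0.10). ENO1 and HK1, at 0.26 ± 0.17 and -0.23 ± 0.10, did not pass.

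Oxidative phosphorylation had 11 rises (34.4%, against 12.2% of named genes) and 3 falls (9.4%, against 16.2%) among 32 genes, with a median of 0.16. Without chicks 74 and 86 the counts were 11 and 1. ATP5B, the catalytic subunit of ATP synthase, ran from 9.91 to 10.42 (median 10.25) at 3 h and from 10.65 to 11.96 (median 11.07) at D3, a rise of 0.88 ± 0.14 (adjusted p = 3.51e-06) with separate groups. COX7A2 and COX6C, subunits of cytochrome oxidase, rose by 0.99 ± 0.16 and 0.65 ± 0.13, and UQCRFS1, the Rieske protein, by 0.61 ± 0.12. NDUFS4 and NDUFA9 differed by 0.32 ± 0.20 and -0.28 ± 0.13 and did not pass. Of 18 genes of the tricarboxylic acid cycle and mitochondrial biogenesis, 4 rose (22.2%, against 12.2% of named genes) and 2 fell (11.1%, against 16.2%). IDH2 ran from 7.39 to 8.29 (median 7.90) at 3 h and from 8.41 to 9.14 (median 8.81) at D3, a rise of 0.90 ± 0.15 with no overlap. The alternative beta subunits of succinyl-CoA synthetase changed in opposite directions, SUCLG2 by 0.40 ± 0.09 and SUCLA2 by -0.49 ± 0.11. PPRC1, a coactivator, rose by 0.62 ± 0.14, while PPARGC1A and PPARGC1B stood at -0.22 ± 0.11 and -0.20 ± 0.09 and did not pass.

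Lipid genes moved both ways, and in fatty acid oxidation more rose than fell, with LPL and CPT1A among the falls. LPL, which frees fatty acids from circulating lipoproteins, ran from 9.31 to 10.92 (median 10.11) at 3 h and from 8.64 to 9.27 (median 8.98) at D3, a fall of 1.19 ± 0.20 (adjusted p = 6.21e-06) with separate groups. CPT1A, which admits fatty acids to the mitochondrion, ran from 9.30 to 10.07 (median 9.67) at 3 h and from 8.00 to 10.24 (median 8.31) at D3. It fell by 1.01 ± 0.19 (adjusted p = 2.87e-05), with 7 D3 chicks below all chicks at 3 h and 1 above them. SLC25A20, the acylcarnitine carrier, rose by 0.42 ± 0.10 and PPARD by 0.28 ± 0.08, the latter with an adjusted p of 0.0536 without chicks 74 and 86. PDK4, at 0.36 ± 0.14, did not pass. In total 8 of 30 genes of fatty acid oxidation rose (26.7%, against 12.2% of named genes) and 3 fell (10.0%, against 16.2%), with a median of 0.06. Of 12 synthesis genes 3 rose (25.0%, against 12.2%) and 1 fell (8.3%, against 16.2%). The rises were ELOVL5 (0.88 ± 0.15) and AGPAT2 (0.49 ± 0.12), with the smallest p, and SREBF1 (0.28 ± 0.09), with a call that ended without chick 86. The fall was GPAM (-0.34 ± 0.11). FADS2 and ELOVL6 stood at -0.39 ± 0.16 and -0.25 ± 0.12 and did not pass. Of 18 cholesterol genes 3 rose (16.7%, against 12.2%) and 2 fell (11.1%, against 16.2%). Among them were HSD17B7 (0.92 ± 0.15), SQLE (0.44 ± 0.12) and MYLIP (0.54 ± 0.14) upwards and INSIG2 (-0.59 ± 0.13) downwards. MSMO1 and ABCG1, at -0.43 ± 0.23 and -0.27 ± 0.17, did not pass.

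Of 25 genes of the unfolded protein and amino acid responses, 11 rose (44.0%) and 3 fell, with a median of 0.28. ASNS, asparagine synthetase and a target of ATF4, ran from 7.20 to 8.01 (median 7.55) at 3 h and from 8.88 to 10.34 (median 9.48) at D3. All D3 chicks lay above all chicks at 3 h, and the rise was 1.91 ± 0.24 (adjusted p = 1.13e-08). SLC7A5, the importer of large neutral amino acids, ran from 9.02 to 10.01 (median 9.43) at 3 h and from 10.44 to 11.57 (median 11.16) at D3 and rose by 1.58 ± 0.18 (adjusted p = 2.68e-09), likewise with no overlap. SLC7A1, which imports arginine, rose by 0.71 ± 0.12, and XBP1, a factor of the unfolded protein response, by 0.52 ± 0.08. CALR3 and PHGDH differed by 0.38 ± 0.15 and 0.28 ± 0.12 and did not pass. ODC, ornithine decarboxylase of polyamine synthesis, ran from 9.77 to 10.54 (median 10.02) at 3 h and from 11.23 to 12.06 (median 11.75) at D3, a rise of 1.61 ± 0.15 (adjusted p = 3.57e-11). In the same pathway AMD1 rose by 0.49 ± 0.13, whereas spermidine synthase SRM fell by 0.56 ± 0.09 and the antizyme OAZ2 by 0.42 ± 0.11. Of 17 genes of arginine, polyamine and itaconate metabolism 4 rose (23.5%, against 12.2% of named genes) and 3 fell (17.6%, against 16.2%). ACOD1 and KYNU, at -0.38 ± 0.32 and -0.31 ± 0.19, did not pass.

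Genes of protein synthesis were called in both directions. Of 47 ribosomal protein genes 9 rose (19.1%, against 12.2% of named genes) and 7 fell (14.9%, against 16.2%), with a median of 0.01. The balance was not stable: 6 rose and 8 fell without chicks 74 and 86 (median -0.05) and with median centring (median -0.01), 5 and 8 without chick 86 alone, and 5 and 4 in a fit of these arrays alone. RPL27A ran from 9.52 to 10.02 (median 9.83) at 3 h and from 10.30 to 11.10 (median 10.62) at D3, a rise of 0.83 ± 0.13 (adjusted p = 1.11e-06) with separate groups, RPS2 and RPL13 rose by 0.40 ± 0.11 and 0.33 ± 0.09, and RPS10 fell by 0.39 ± 0.09. RPL17 and RPS4Y1, which the annotation gives for RPS4X, stood at 0.41 ± 0.20 and -0.23 ± 0.09 and did not pass. Of 26 genes of ribosome biogenesis 9 rose (34.6%) and 1 fell (3.8%). With each array centred on its median, and in a fit of these arrays alone, 5 rose. GNL3, a nucleolar GTPase, ran from 8.18 to 8.89 (median 8.52) at 3 h and from 8.86 to 9.48 (median 9.15) at D3, a rise of 0.63 ± 0.09 (adjusted p = 6.67e-07). NPM1, the main nucleolar chaperone, rose by 0.63 ± 0.14, DKC1 by 0.28 ± 0.07 and WDR12 by 0.39 ± 0.10. POLR1B and UTP15, at 0.39 ± 0.16 and 0.24 ± 0.22, did not pass.

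Of 19 translation factors and tRNA synthetases 8 rose (42.1%, against 12.2% of named genes) and 4 fell (21.1%, against 16.2%). SARS1, which charges serine tRNA, ran from 7.48 to 7.86 (median 7.67) at 3 h and from 8.07 to 8.63 (median 8.27) at D3, with separate groups and a rise of 0.60 ± 0.08 (adjusted p = 8.65e-08). CARS, which charges cysteine tRNA, and the initiation factor EIF3A rose by 0.93 ± 0.15 and 0.81 ± 0.12, and the elongation factor EEF2 fell by 0.36 ± 0.07. RARS and EIF2S1 differed by 0.31 ± 0.15 and 0.17 ± 0.10 and did not pass. Of 21 chaperones 8 rose (38.1%) and none fell. HSPA8, the constitutive chaperone, ran from 11.27 to 11.89 (median 11.36) at 3 h and from 11.70 to 12.81 (median 12.08) at D3 and rose by 0.72 ± 0.17 (adjusted p = 0.0007), and DNAJA1, HSPB9 and HSP90AB1 rose by 0.80 ± 0.20, 0.83 ± 0.22 and 0.56 ± 0.14. HSPD1 and BAG3 stood at 0.46 ± 0.21 and -0.39 ± 0.21 and did not pass. Of 22 proteasome genes 8 rose (36.4%) and 4 fell (18.2%), and 7 and 1 without chicks 74 and 86. PSME4, an activator subunit, ran from 10.15 to 11.15 (median 10.81) at 3 h and from 9.83 to 10.18 (median 9.95) at D3 and fell by 0.74 ± 0.09, while PSMD14 rose by 0.80 ± 0.15, PSMA6 by 0.36 ± 0.10 and PSMA4 by 0.25 ± 0.06. PSMD2 and PSMB7, at -0.29 ± 0.18 and -0.29 ± 0.14, did not pass.

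Immediate early genes, which respond to stimuli within minutes, were mostly higher: 12 of 21 rose (57.1%) and 1 fell, with a median of 0.29. BTG1, an inhibitor of proliferation, ran from 10.11 to 10.62 (median 10.40) at 3 h and from 10.66 to 11.59 (median 11.19) at D3, a rise of 0.81 ± 0.11 (adjusted p = 1.24e-07) without overlap. FOS, a subunit of AP-1, ran from 6.59 to 7.72 (median 7.24) at 3 h and from 7.44 to 9.92 (median 8.26) at D3 and rose by 1.23 ± 0.23 (adjusted p = 5.07e-05). EGR1 rose by 0.72 ± 0.15, SIK1, a kinase induced by cyclic AMP, by 1.64 ± 0.35, and KLF6 was the gene that fell, by 1.04 ± 0.16. JUN and GADD45A, at 0.32 ± 0.16 and -0.33 ± 0.14, did not pass.

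Of 26 antioxidant genes, 4 rose (15.4%, against 12.2% of named genes) and 6 fell (23.1%, against 16.2%). In a fit of these arrays alone 3 fell. These shares are not far from the background, so the counts do not set the group apart. GSTO2, an omega glutathione transferase, ran from 6.52 to 7.76 (median 6.85) at 3 h and from 7.76 to 9.15 (median 8.68) at D3, a rise of 1.73 ± 0.21 (adjusted p = 4.77e-09). PRDX3, the mitochondrial peroxiredoxin, rose by 1.18 ± 0.19. PGD, which makes NADPH in the pentose phosphate pathway, ran from 8.49 to 9.69 (median 9.08) at 3 h and from 7.45 to 8.28 (median 7.88) at D3 and fell by 1.25 ± 0.19 (adjusted p = 5.98e-07) with no overlap, and TXNRD1, thioredoxin reductase, fell by 0.80 ± 0.18. GLRX and SOD2 differed by 0.37 ± 0.26 and 0.33 ± 0.13 and did not pass.

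Of 22 genes of apoptosis and p53, 6 fell (27.3%, against 16.2% of named genes) and 5 rose (22.7%, against 12.2%). BID, which carries the death signal to mitochondria, ran from 9.93 to 10.73 (median 10.30) at 3 h and from 8.62 to 9.54 (median 8.95) at D3. The groups were separate, and the fall was 1.32 ± 0.17 (adjusted p = 1.96e-08). CASP2 and the pore protein BAK1 fell by 0.54 ± 0.09 and 0.54 ± 0.11, and MDM2, the ligase of p53, by 0.36 ± 0.08. CCNG1 and RRM2B stood at -0.33 ± 0.13 and -0.19 ± 0.11 and did not pass. Of 24 genes of autophagy and lysosomes 5 fell (20.8%, against 16.2% of named genes) and 2 rose (8.3%, against 12.2%). Among them were ATG5 (-0.61 ± 0.13) and TECPR2 (-0.59 ± 0.14) downwards and the protease CTSA (0.75 ± 0.15) upwards. ATG7 and ULK1, at -0.30 ± 0.15 and 0.29 ± 0.12, did not pass.

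Of 17 glucocorticoid and thyroid hormone targets 3 rose (17.6%, against 12.2% of named genes) and 3 fell (17.6%, against 16.2%). FKBP5, a chaperone induced by glucocorticoids, ran from 8.32 to 8.96 (median 8.56) at 3 h and from 6.79 to 9.83 (median 7.28) at D3. Of the D3 chicks 6 lay below and 2 above all chicks at 3 h; the fall of 0.79 ± 0.26 (adjusted p = 0.0191) ended without chick 85, 89 or 91. The receptor NR3C1 fell by 0.35 ± 0.10, SESN1 rose by 0.47 ± 0.13, and the rise of CRH (0.27 ± 0.10) ended without any of 9 single chicks. KLF15 and ANXA1 differed by -0.25 ± 0.11 and 0.23 ± 0.34 and did not pass. In the clock, 1 of 10 genes rose (10.0%, against 12.2%) and 2 fell (20.0%, against 16.2%). The repressor CRY1 rose by 0.75 ± 0.14, and CLOCK (-0.39 ± 0.12, a call that ended without chick 86) and TEF (-0.30 ± 0.12) fell. ARNTL and RORA, at -0.35 ± 0.14 and 0.25 ± 0.14, did not pass. The hour of sampling on each day is not given in the labels used here.

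Among transcripts of other tissues, 14 of 19 plasma protein genes and 9 of 14 muscle, endothelial and stromal markers had means below 6.26. Of 19 plasma protein genes none rose (against 12.2% of named genes) and 1 fell (5.3%, against 16.2%). SERPINC1 (antithrombin), the gene that fell, ran from 6.93 to 8.89 (median 8.18) at 3 h and from 6.04 to 9.56 (median 6.43) at D3. Chick 86 was the highest of all, and the fall was 1.19 ± 0.33 (adjusted p = 0.00451). AHSG and APOA1 differed by -0.30 ± 0.12 and 0.26 ± 0.12 and did not pass. Of 14 muscle, endothelial and stromal markers none rose and 2 fell (14.3%, against 16.2%). The falls were SPARC (-1.26 ± 0.35), a matrix protein also found in mammalian platelets, and PECAM1 (-0.68 ± 0.22), an adhesion molecule of endothelium and blood cells. The call of PECAM1 ended without chick 91. COL1A1, ACTA1, TNNT3 and KDR stood at 0.10 ± 0.12, 0.01 ± 0.11, -0.11 ± 0.10 and -0.28 ± 0.11 and did not pass. Among 18 genes of insulin-like growth factors and fetal growth, 2 rose (11.1%, against 12.2%) and none fell. IGF2R rose by 0.38 ± 0.10 and PHLDA2 by 0.32 ± 0.10, and IGF1R, at -0.32 ± 0.14, did not pass.

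Control chicks at D6 place these changes in time; they are compared with the same 8 D3 chicks, so that both differences share those arrays. From D3 to D6, 3060 probe sets differed (14.7%), 1407 higher (6.76%) and 1653 lower (7.95%), and 57 by at least 2-fold. Which direction held more calls depended on the setting: there were 1901 higher and 1789 lower without chicks 74 and 86, 1677 and 1554 with repeated quantile normalization, and 2000 and 1946 with array weights. Of the 15 largest rises to D3, 11 did not pass between D3 and D6, 3 fell (NUSAP1, -1.21 ± 0.26; NEK2, -0.83 ± 0.22; DDX60, -1.55 ± 0.47) and 1 rose (ABCC4, 0.84 ± 0.27). Of the 15 largest falls, 11 did not pass, 3 fell (EXOC3L, -0.74 ± 0.23; FRMD1, -0.89 ± 0.22; DOCK5, -0.50 ± 0.13) and 1 rose (MIR223, 0.42 ± 0.14). HBE was at 8.52 to 10.58 (median 9.55) at D6, and its difference from D3 of -0.49 ± 0.34 did not pass. Among named genes 6.89% were higher and 10.4% lower. In the groups, 13 of 28 mitosis genes fell from D3 to D6 and none rose (median -0.50), as did 13 of 37 replication genes, 12 of 26 of ribosome biogenesis and 15 of 25 of glycolysis and low oxygen (median -0.34). Of the 12 heterophil genes, which had given no call at D3, 6 fell from D3 to D6, among them CSF3R (-1.01 ± 0.20).

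The same interval in the CpG chicks, which share no bird with the controls, gave 4039 called probe sets (19.4%). Of the 5158 probe sets called in controls, 4932 had the same sign in CpG chicks (95.6%), 2862 were called the same way, which is 55.5% of the control calls and 70.9% of the CpG calls, and 0 were called the opposite way. Across all 20804 probe sets Pearson's r between the differences was 0.77, a description over probe sets that are not independent. Over the probe sets called in controls the median ratio of the CpG to the control difference was 0.71. Calls in the controls chose these probe sets, and such a choice by itself lowers the ratio. Of the 15 largest rises all 15, and of the 15 largest falls 14, were called the same way in CpG chicks; the exception, DGKH, stood at -0.72 ± 0.28. The direct test of the age change in control against CpG chicks called 2 probe sets (0.00961%), with 1451 at an unadjusted p under 0.05. Its median SE was 0.165, against 0.117 for the control difference, so few calls do not show that the changes were equal. Counts by list differed: 5 of 6 defensins rose in CpG chicks (median 1.25) and none in controls (-0.24). Interferon-stimulated genes gave 12 rises of 23 (median 0.74) against 4 (0.06), and heterophil genes 6 of 12 against none. Among these lists the direct test called only 1 gene, AvBD4. The median over all named genes was -0.01 in CpG chicks. The 19.4% called there covers both directions. The share of all genes that rose in CpG chicks is not given here, so how far the list counts exceed it is not shown.

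The 2 genes called by that direct test were FGL2 and AvBD4, and both rose with age in the CpG chicks while the control difference did not pass. FGL2, a fibrinogen-like protein of macrophages and T cells, ran from 7.21 to 9.15 (median 8.18) at 3 h and from 7.07 to 8.38 (median 8.02) at D3 in controls. In CpG chicks it ran from 6.16 to 8.52 (median 7.19) at 3 h and from 8.25 to 9.39 (median 8.56) at D3, a rise of 1.40 ± 0.23 against -0.35 ± 0.23 in controls. The difference between these changes was -1.75 ± 0.33 (adjusted p = 0.0216). AvBD4, a beta-defensin, ran from 5.38 to 6.16 (median 5.63) at 3 h and from 5.17 to 5.63 (median 5.49) at D3 in controls and from 4.96 to 6.41 (median 5.68) at 3 h and from 6.05 to 6.98 (median 6.40) at D3 in CpG chicks. Its changes were -0.25 ± 0.15 and 0.85 ± 0.15, and their difference was -1.10 ± 0.21 (adjusted p = 0.0216). The mean of AvBD4 over all arrays lay below 6.26, so the fit without the lowest 40% of probe sets did not test it. Neither call held in a fit of these 4 groups alone (adjusted p = 0.0962 and 0.0803). The call of AvBD4 also ended with array weights (adjusted p = 0.0533) and without chicks 74 and 86 (adjusted p = 0.0796), and of 36 fits that leave out 1 chick, 13 ended the call of FGL2 and 10 that of AvBD4.

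**Figure D5:**
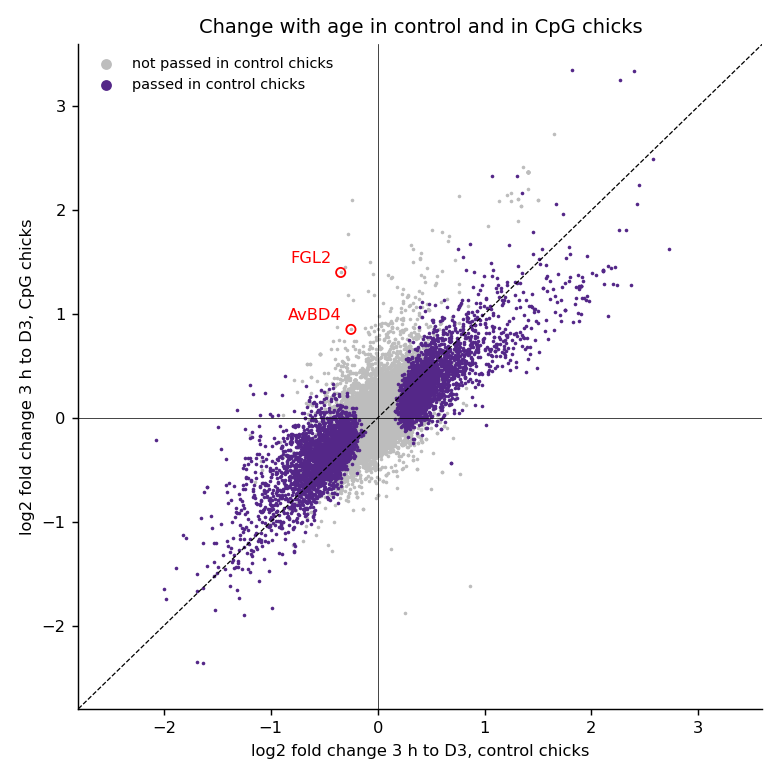
Log2 difference D3 minus 3 h in CpG chicks (vertical axis) against the same difference in control chicks (horizontal axis), 1 point per probe set, with the line of equal change. FGL2 (-0.35 in controls) and AvBD4 (-0.25) lie above the line, and most probe sets called in controls lie on the same side of 0 on both axes (95.6%).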

How the data were processed

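Whole blood of chicks was measured on an Affymetrix array, 1 chick per array; per the labels' protocols, blood was drawn into PAXgene tubes and total RNA was DNase-treated and labelled with biotin by the WT PLUS protocol. The deposited values are log2 expression values made by the authors with RMA, per the submitters' processing notes, which corrects background, normalizes quantiles and summarises probes; no source used here gives its version or settings. They ran from 1.12 to 14.7 and were used as deposited. The number of arrays limits precision, and signal over background is unknown. Where nothing says that chicks of a group are otherwise independent, p-values measure the spread between chicks within groups. That spread was pooled over all 58 arrays, CpG chicks included, so it is not that of the compared control chicks alone. A fit of the 18 compared control arrays alone gave 4124 calls, against 5158 in the main fit.

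Of 20804 probe sets, 12300 had 1 gene symbol in the platform annotation, 256 several and 8248 none, and 11727 were matched by Entrez identifier to the GRCg7b gene table, used for names only. Where 1 gene had several probe sets (651 genes), the one with the highest mean stood for it. Of 1289 listed symbols in 49 lists, 886 matched, some through synonyms (PKLR for PKM, PGK2 for PGK1, TSC22D4 for GILZ).

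Tests used limma 3.58.1 in R 4.3.3: lmFit with 6 group means on all 58 arrays, eBayes (52 residual and 4.17 prior degrees of freedom), two-sided p-values adjusted by Benjamini-Hochberg over 20804 probe sets, threshold 0.05. The contrasts were control D3 minus 3 h, that change in control minus CpG chicks, and control D6 minus D3; the CpG change is given beside them. In simulated data with 200 changed probe sets among 20804, the first contrast recovered 73.1% of 1.5-fold, 92.5% of 2-fold and all 3-fold changes, with 4.32% of calls false. Simulated probe sets are independent, unlike real genes. Far fewer were changed than the 5158 called in the data. The adjusted p depends on that share, so these rates need not hold for the real comparison.

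The members and gene lists were chosen with earlier results of these data known. Named genes are the 15 largest called rises and falls with an official symbol, up to 4 called members of each list with the smallest p and up to 2 others with the largest difference, the called control against CpG differences, and all globins and cell type markers. Members named outside this rule (CENPF, ORC1, XK, BPGM, CA2, CD247, SATB1, GATA3, NDRG1, P4HA1, PFKP, ALAS1, FECH, UROD, SIK1) were chosen after their values were seen. Alternatives were the contrast's own arrays, a filter on the lowest 40% of probe sets, a trended robust prior, weights per array, median centring, quantile normalization applied once more, a single probe set for each gene, removal of repeated rows and of rows with identifiers below the first annotated probe set, a W-linked covariate and leaving out each chick; leaving out chicks 74 and 86 together was chosen after seeing the data.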

Additional observations from a re-analysis of the deposited data

Results flagged for a closer look

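Among 600 pairs of a named gene and a control group (300 genes at 3 h and D3), 40 had a chick at the edge of its group with a gap to the nearest other chick that was large for the group's range (Dixon's criterion); chance flags about 1 in 20 groups. Of these, 7 were chick 74 and 12 chick 86, the arrays with the lowest correlations to their groups.

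At 3 h, chick 74 was the lowest in HBAD (13.82), FTH1 (13.55), CISH (9.77), PSMA4 (10.03), PHGDH (5.44) and SOD2 (8.95) and the highest in GSTO2 (7.76). Chick 75 was the highest in DDX60 (6.86), LYG2 (10.33) and PECAM1 (9.25) and the lowest in RPL27A (9.52) and HEMGN (9.99). Chick 79 was the lowest in VPREB3 (6.28) and CD55 (12.14) and the highest in EIF2S1 (9.31). Chick 81 was the lowest in NUSAP1 (5.53) and PHLDA2 (4.98) and the highest in SRM (9.39) and TECPR2 (8.95). Chick 78 was the lowest in PSMD14 (5.17) and the highest in ALB (6.54), and chick 76 was the lowest in IGF1R (6.55).

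At D3, chick 86 was the highest in HOXA9 (7.56), VPREB3 (7.63), CD3D (8.45), C5 (6.86), RPS4Y1 (12.76), KLF15 (7.65), SERPINC1 (9.56) and ALB (6.58) and the lowest in NDUFA9 (8.18), SUCLA2 (6.81), PSMB7 (5.24) and ATG7 (7.28). The raised genes of chick 86 include T and B lineage markers and plasma protein genes. Chick 90 was the lowest in E2F1 (8.03), GFI1B (11.02) and LECT2 (6.27) and the highest in SLC40A1 (10.70). Chick 88 was the highest in MMRN2 (8.43) and chick 91 in CD36 (8.75).

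The limma test of the age change in control against CpG chicks called 2 genes, FGL2 (-1.75 ± 0.33, log2) and AvBD4 (-1.10 ± 0.21). Neither call held in a limma fit of the 4 compared groups alone (adjusted p = 0.0962 and 0.0803). Of 36 fits that leave out 1 chick, 13 and 10 ended these calls.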

How the results depend on the processing

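No called difference of a named gene changed sign under any alternative. For control blood at D3 against 3 h, the fits with all probe sets gave between 4124 (these 18 arrays alone) and 6032 calls (array weights), against 5158; with 1 probe set per gene symbol, which tests fewer probe sets, there were 3410 (1476 higher, 1934 lower). Median centring gave 2159 higher and 2937 lower, and leaving out chicks 74 and 86 gave 5053 (2466 and 2587). Leaving out each of 18 chicks gave 4530 (without D3 chick 91) to 5314 (without D3 chick 88). For the control against CpG difference, the contrast's own arrays gave 0 calls (limma; 1451 at an unadjusted p under 0.05 in the fit of all arrays, 2 calls) and array weights 5, and leaving out each of 36 chicks gave 0 (without CpG 3 h chick 4) to 4 (without CpG 3 h chick 2). The adjusted p of FGL2 ranged from 0.00945 to 0.0962 over these settings, and that of AvBD4 from 0.00945 to 0.0803. For control D6 against D3, 3060 calls became 2797 to 3946 with all probe sets or the low filter, 2178 with 1 probe set per gene symbol, 3690 without chicks 74 and 86, and 2229 (without D3 chick 90) to 3266 (without D3 chick 85) with 20 chicks left out in turn. The cause of these moves was not tested. Of 192 named genes called at D3, 183 kept the call without chicks 74 and 86 and 175 kept it whichever chick was left out. Some list counts moved over 1.5 times in ways not given with the results. Apoptosis rises went from 5 to 3 with median centring, quantile normalization, own arrays or without chick 86. Autophagy falls went from 5 to 3 with quantile normalization or without chick 86, and its rises from 2 to 4 with quantile normalization. Falls of fatty acid and triglyceride synthesis went from 1 to 3 with median centring or without chick 86. Rises of interferon and cytokine signalling went from 1 to 3 without chicks 74 and 86. Rises of fatty acid oxidation went from 8 to 5 with own arrays. Rises of glucocorticoid targets went from 3 to 1 with own arrays or without chick 86. Falls of complement and glucocorticoid genes went from 3 to 1 with own arrays. Glycolysis rises went from 3 to 1 with median centring, quantile normalization or own arrays, and to 0 without chick 86. Oxidative phosphorylation falls went from 3 to 0 with own arrays and to 1 without chick 86. Proteasome falls went from 4 to 1 with own arrays, quantile normalization or without chick 86. No paired analysis was possible because the groups share no chick numbers.

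Array number, a wide spread among chicks in interferon-stimulated genes, low values in 901 called probe sets (mean under 6.26) and unknown saturation of the globins limit these values.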

Other observations

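Genes grouped by the start of their symbol, a grouping made after the values were seen and therefore without a test, add families outside the lists. Of 11 condensin and cohesin genes (SMC and NCAP), which shape and hold chromosomes, 7 were called higher at D3 and 1 lower, with a median of 0.83; SMC2 differed by 1.90 and SMC4 by 1.07. Of 11 histone genes (HIST and H1FX), 7 were higher and 1 lower, with a median of 0.53, HIST1H2B5 at 1.88 and HIST1H2A4L1 at 1.66 among them. Of 14 centromere genes (CENP), 8 were higher and 2 lower (median 0.34), with CENPN at 1.17 and CENPS at -1.18. Of 30 kinesin genes, the motors of microtubules, 12 were higher and 4 lower, with a median of 0.04. Over all named genes 12.2% were higher and 16.2% lower.

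Other families were closer to that background. Among 381 miRNA genes 27 were higher and 37 lower (median -0.02), and beside MIR223 (-1.53) they included MIR126 (1.13). Among 73 zinc finger genes (ZNF) 9 were higher and 12 lower, among 144 TMEM genes 15 and 32, among 28 mitochondrial carriers (SLC25) 6 and 3, and among 33 ABC transporters, despite ABCC4 and ABCG2, 4 and 6.

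The median SD among control chicks over probe sets was similar at both ages, 0.248 at 3 h and 0.258 at D3, and 0.211 and 0.227 without chicks 74 and 86. At D6 it was 0.214. Single lists differed in both directions. The SD of the list mean at 3 h and D3 was 0.145 and 0.384 for mitosis, and 0.877 and 0.422 for interferon-stimulated genes.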
